A study of Mus musculus with 9 samples.

Results

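Epcam, Prom1, Cd24a, Spp1, Cd44, St14, Ncam1 and Lcn2 are 8 genes whose surface or secreted proteins are used to recognise and isolate duct cells and duct-derived progenitors of the liver. They were taken by gene name from count tables that list 32137 mouse genes, and all 8 were found and passed the filter on low counts that left 17011 genes for testing. Their RNA was measured in 9 libraries of sorted cells from differentiated bile duct organoids. All organoids came from 1 male animal of mixed background with the genotype Axin2CreERT2+/-; R26-LSL-tdTom+/-, in which a tamoxifen-dependent Cre made under the Wnt target gene Axin2 switches on the red protein tdTom. In the last 24 h of 11 days of differentiation, every group received 3 uM dexamethasone and 500 nM of the tamoxifen form 4-OHT. The untreated group was tdTom-negative cells from organoids that got no Rspo1 (R-spondin 1, a secreted amplifier of Wnt signalling). The Rspo1-negative and Rspo1-positive groups were the tdTom-negative and tdTom-positive cells from organoids given 100 ng/ml Rspo1. Each group had 3 libraries, 1 each from passages 5, 6 and 10 of the organoid line. The p-values of comparisons between groups thus measure the spread between cultures of a single animal.

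The duct markers fall into classes by what their proteins do. Epcam is an adhesion protein of simple epithelia, Prom1 (CD133) sits in membrane protrusions, Cd24a is a small sugar-coated surface protein, Cd44 is the main receptor for the matrix sugar hyaluronan, and Ncam1 is an adhesion molecule best known from neurons and described on reactive duct cells. St14 encodes matriptase, a membrane-bound serine protease of epithelia. Spp1 encodes osteopontin, a secreted ligand of integrins that bile duct cells make, and Lcn2 encodes lipocalin 2, a secreted binder of bacterial iron carriers that inflammatory signals through NF-kB induce.

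Total counts per library ranged from 23423979 to 37351448, and a member had between 55 and 286270 counts in a library. Cholangiocyte markers were plentiful in every group: all 10 of 10 were measured, none was at or under 3 counts throughout a group, and their summed level was 9317 to 15606 CPM (counts corrected for library size). Of the 10 hepatocyte markers, Cps1 and Cyp3a11 had at most 3 counts in every library, and the summed level was 327 to 724 CPM. Fibroblast, endothelial and leukocyte markers summed to at most 1.30, 3.43 and 68.1 CPM. Markers of dividing cells, 10 of 10 measured, summed to 122 to 207 CPM in untreated, 305 to 308 CPM in Rspo1-negative and 642 to 923 CPM in Rspo1-positive libraries. Their part in the differences between groups was not tested. Axin2, on which the sort rests, was higher in both Rspo1 groups than in untreated cells (log2 fold change 5.13 for Rspo1-positive and 4.87 for Rspo1-negative, adjusted p = 0.00131 and 0.00115 by edgeR), while Rspo1-positive against Rspo1-negative gave 0.26 (BH-adjusted p = 0.733).

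The Rspo1-negative libraries stood apart in base composition. Across 17001 genes, which are not independent replicates, the rank correlation of the log2 fold change with GC content was 0.509 for Rspo1-negative against untreated and -0.518 for Rspo1-positive against Rspo1-negative, compared with -0.016 for Rspo1-positive against untreated. A fit with an offset for GC content and length brought these to 0.020, -0.013 and 0.023. Results that rest on the Rspo1-negative libraries are therefore given with and without that offset.

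Together the 8 genes took 0.90% to 1.57% of all counts in a library, and Lcn2 alone made up 29.6% to 55.8% of that sum. Levels between genes are compared on the deposited FPKM, a count scaled for gene length and sequencing depth. Averaged over the 9 libraries, Lcn2 had 3189 FPKM and ranked 10 among the genes tested. Spp1 had 881 FPKM, Cd24a 604, Prom1 515, Epcam 287, Cd44 118 and St14 112. Each of these 6 lay above at least 96.8% of the tested genes. Ncam1, at 0.623 FPKM, lay above only 16.5% of them.

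Lcn2 was first and Ncam1 last in each group, with no overlap with the neighbouring gene in FPKM. With CPM per kilobase of annotated exon, Lcn2 (1002 to 1923) overlapped Spp1 (808 to 1152) in Rspo1-positive cells. On the FPKM scale, in untreated cells Cd24a (mean 763 FPKM), Spp1 (652 FPKM) and Prom1 (536 FPKM) overlapped their neighbours in the order, as did St14 and Cd44 (110 and 107 FPKM). Epcam lay between these sets without overlap, at 291 FPKM. In Rspo1-positive cells Spp1 stood second without overlapping Cd24a, and Cd44 (149 FPKM) stood above St14 (89.2 FPKM), again without overlap. With CPM per kilobase in place of the deposited FPKM, 4 of 8 genes kept their rank in untreated cells and 6 in each Rspo1 group, and Cd44 lay above St14 in all 3 groups. The order of Cd44 and St14 in untreated and Rspo1-negative cells thus changed with the gene lengths used.

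**Figure D1:**
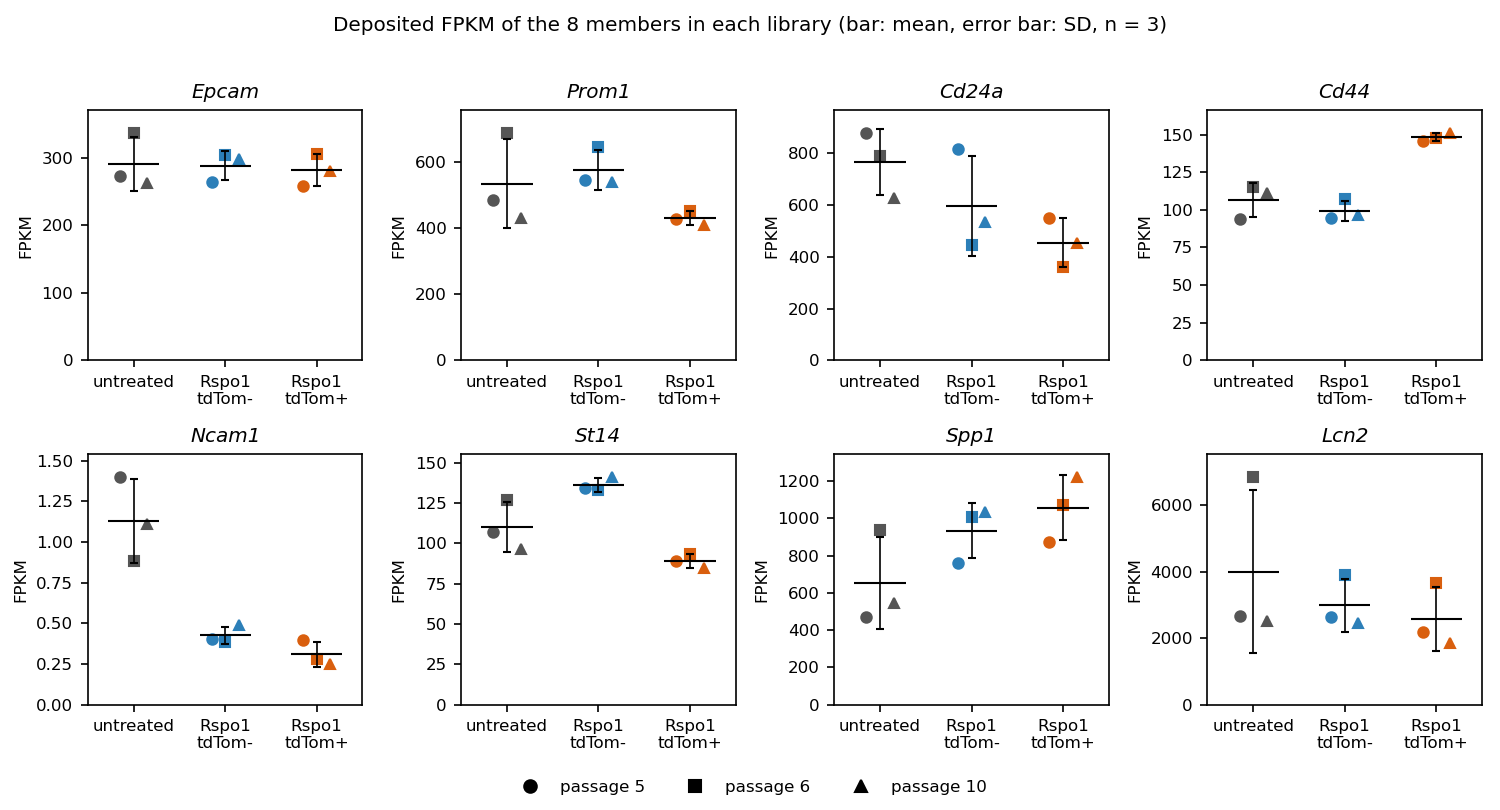
Deposited FPKM of each of the 8 genes (vertical axis, from 0) in the 3 groups (horizontal axis), with 1 point per library shaped by passage, the mean as a bar and the SD as an error bar (n = 3). Ncam1 is higher in all 3 untreated libraries than in the 6 Rspo1 libraries, Cd44 is highest in the 3 Rspo1-positive libraries (146 to 151 FPKM), and Lcn2 is highest at passage 6 in each group.

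The groups gave 3 comparisons. Rspo1-positive against untreated changes both the treatment and the gate, Rspo1-positive against Rspo1-negative changes the gate alone, and Rspo1-negative against untreated changes the treatment within the tdTom-negative gate. The first and the third share the untreated libraries, and the other pairs also share a group, so their values are set side by side and not counted as separate support. In the third, the cells left in the tdTom-negative gate can differ with treatment. A response to Rspo1 and a change in which cells were sorted thus cannot be told apart. The test was edgeR's quasi-likelihood F-test, adjusted over all tested genes by Benjamini and Hochberg's method (BH). In it, 1 of the 8 genes passed an adjusted p of 0.05 between Rspo1-positive and untreated cells, where 5.21% of all tested genes did. Between the Rspo1 groups 2 of 8 passed, against 24.3% of all tested genes, and between Rspo1-negative and untreated cells 1 of 8 passed, against 21.9%. With the GC and length offset the counts were 1, 2 and 1 of 8, where 5.93%, 7.44% and 7.55% of all tested genes passed. The median log2 fold change of the 8 was -0.31, -0.28 and -0.09 in the 3 comparisons, beside -0.01, 0.03 and -0.02 over all tested genes. With passage as a block the first comparison had 4 of 8 past the threshold, against 13.2% of all tested genes, and the other comparisons kept their counts of 2 and 1 (38.9% and 35.5% of all tested genes). Libraries of the groups did not overlap for 4, 3 and 2 of the 8 genes, where 23.2%, 45.2% and 36.3% of all tested genes did not overlap.

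Ncam1 (ENSMUSG00000039542, chromosome 9, 49502136 to 49798925, minus strand, GRCm38) fell in both Rspo1 groups. It had 1.40, 0.881 and 1.11 FPKM in untreated libraries at passages 5, 6 and 10, from 303, 176 and 257 counts. Rspo1-negative libraries had 0.406, 0.388 and 0.487 FPKM, and Rspo1-positive libraries had 0.398, 0.282 and 0.252 FPKM, from 55 to 107 counts in these 6. Every untreated library was above every Rspo1 library, and the Rspo1 groups overlapped each other. The log2 fold change was -1.86 (± 0.27 SE, edgeR BH-adjusted p = 0.00284) in Rspo1-positive and -1.44 (± 0.26 SE, BH-adjusted p = 0.00485) in Rspo1-negative cells against untreated. With the GC and length offset the latter was -1.29 (BH-adjusted p = 0.0194). Both calls held in each of the 6 fits that left out 1 library. Such fits, here and below for the groups, had no passage block. In these bulk samples, fewer cells that hold a transcript and less of it per cell cannot be told apart.

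Between the 2 Rspo1 groups Ncam1 was not called: the log2 fold change of Rspo1-positive against Rspo1-negative was -0.42 (± 0.27 SE, edgeR BH-adjusted p = 0.271). It was -0.66 (BH-adjusted p = 0.143) with the offset alone and -0.44 (BH-adjusted p = 0.149) with the passage block alone. Only block and offset together passed the threshold (-0.67, BH-adjusted p = 0.0421). Its within-passage log2 ratios were 0.03, -0.46 and -0.91 at passages 5, 6 and 10. Of the exon bases of Ncam1, 4.81% lie on Gm11149 on the opposite strand, and the strand setting of the counting is not given in the sources used here.

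Most partners of Ncam1 were too low to test. Only 3 of 7 listed genes passed the filter. Of these, Fgfr4, a fibroblast growth factor receptor, exceeded its untreated level in Rspo1-negative cells (log2 fold change 1.13, edgeR BH-adjusted p = 0.0137; 0.83 and 0.0483 with the offset; 0.0511 without untreated replicate 1). For Rspo1-positive against untreated cells Fgfr4 gave 0.99 (edgeR BH-adjusted p = 0.0554). This was 0.98 (BH-adjusted p = 0.0275) with the offset and 1.02 (BH-adjusted p = 0.000149) with the passage block. Between the Rspo1 groups Fgfr4 gave -0.14 (BH-adjusted p = 0.735), and 0.15 (BH-adjusted p = 0.701) with the offset. St8sia4, which builds polysialic acid on Ncam1, was lower in Rspo1-negative than in untreated cells (-1.58, BH-adjusted p = 0.0252), but with the offset its value was -0.35 (BH-adjusted p = 0.636). That call was also lost without untreated replicate 1 (0.0506) or 2 (0.0737), or Rspo1-negative replicate 1 (0.0529) or 3 (0.0896). L1cam, a related adhesion molecule, had more RNA in the Rspo1-positive than in the Rspo1-negative group (0.76, edgeR BH-adjusted p = 0.0225). It had 0.71 (BH-adjusted p = 0.0483) with the offset and 0.75 (BH-adjusted p = 0.00942) with the passage block. Among the fits that left out 1 library, the call was kept only without Rspo1-negative replicate 2 (BH-adjusted p of up to 0.0835 in the others).

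Cd44 (ENSMUSG00000005087, chromosome 2, 102811141 to 102901665, minus strand) was highest in Rspo1-positive cells. At passages 5, 6 and 10 it had 93.7, 115 and 111 FPKM in untreated, 94.7, 107 and 96.7 FPKM in Rspo1-negative, and 146, 148 and 151 FPKM in Rspo1-positive libraries. The 3 Rspo1-positive libraries lay close together and above all 6 others, which overlapped. Against Rspo1-negative cells the log2 fold change was 0.61 (± 0.14 SE, edgeR BH-adjusted p = 0.0135). This call rested on settings: with the GC and length offset the value was 0.20 (BH-adjusted p = 0.405), and the call was lost without Rspo1-negative replicate 1 (BH-adjusted p = 0.0514), Rspo1-negative replicate 3 (0.0582) or Rspo1-positive replicate 3 (0.0505).

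Against untreated cells, where fold changes did not track GC content, Cd44 had a log2 fold change of 0.48 (± 0.14 SE, edgeR BH-adjusted p = 0.0933), and passage as a block brought the same value to an adjusted p of 0.0353. With block and offset together it was 0.39 (BH-adjusted p = 0.0715). The authors' deposited DESeq2 tables gave 0.49 (adjusted p = 0.00175) against untreated and 0.59 (adjusted p = 2.27e-06) against Rspo1-negative cells. Within passages the log2 ratios of Rspo1-positive to untreated were 0.64, 0.34 and 0.47. Rspo1-negative and untreated cells differed by -0.13 (± 0.14 SE, BH-adjusted p = 0.545), a sign that turned with the offset (0.19). Dividing-cell markers moved in step with group, from at most 207 CPM in untreated to at least 642 CPM in Rspo1-positive libraries, and their part in the Cd44 values was not tested.

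The genes listed around Cd44 were hyaluronan enzymes, cytoskeletal linkers, splicing factors and sheddases, of which 12 of 14 were tested. Between Rspo1-positive and untreated cells 2 rose and 1 fell, where 5.21% of all tested genes were called. Hmmr, a second hyaluronan receptor that also acts on the mitotic spindle, had 0.312, 2.25 and 0.683 FPKM in untreated, 1.29, 2.41 and 1.80 FPKM in Rspo1-negative and 4.97, 11.3 and 7.05 FPKM in Rspo1-positive libraries. The Rspo1-positive values exceeded all others. The log2 fold change of Hmmr against untreated was 2.84 (± 0.60 SE, edgeR BH-adjusted p = 0.0218), and the call was lost without untreated replicate 3 (0.0557) or Rspo1-positive replicate 2 (0.0946).

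The linkers that tie Cd44 to actin did not move as a set. Msn (moesin) rose in Rspo1-positive over untreated cells (log2 fold change 0.80, ± 0.20 SE, edgeR BH-adjusted p = 0.0413; 0.0647 with the offset), whereas Ezr (ezrin) was lower (-0.72, ± 0.18 SE, BH-adjusted p = 0.0442; 0.0315 with the offset). With the passage block Msn and Ezr were also called (edgeR BH-adjusted p = 0.00123 and 0.00454), as with block and offset together (BH-adjusted p = 0.00413 and 0.00325). In the fits that left out 1 library, the call of Msn was kept only without untreated replicate 1 or Rspo1-positive replicate 3. That of Ezr was kept only without untreated replicate 2. The other fits gave BH-adjusted p-values of up to 0.221 for Msn and 0.216 for Ezr. Against Rspo1-negative cells, Rdx (radixin) was higher by 1.0 and the sheddase Adam10 by 0.92 (BH-adjusted p = 0.00196 and 0.00574). Both fell in Rspo1-negative against untreated cells (-0.74 and -1.23, BH-adjusted p = 0.00512 and 0.00166). With the offset these values were -0.22 for Rdx (BH-adjusted p = 0.283) and -0.82 for Adam10 (BH-adjusted p = 0.0131). In the comparison of the Rspo1 groups 3 of the 12 were called (5 with the block), against 24.3% of all tested genes (38.9% with the block). These 3 were higher in Rspo1-positive cells, and each lost its call with the offset. Rdx then stood at 0.42 (BH-adjusted p = 0.0594), Adam10 at 0.43 (BH-adjusted p = 0.0918) and Hmmr at 1.45 (BH-adjusted p = 0.142). With block and offset together Rdx, Adam10 and Hmmr were called, at 0.42, 0.44 and 1.39 (edgeR BH-adjusted p = 0.024, 0.0163 and 0.00573).

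The stretch before the start of Cd44 is shown because this gene separated the Rspo1-positive libraries. RefSeq promoter windows of GRCm38.p6, taken as 250 bases before the start, were matched for 5 of the 8 genes (7 windows, for Epcam, Prom1, Spp1, Cd44 and Lcn2). Cd24a, St14 and Ncam1 were not matched. Capitals mark matches, on either strand, to GGG, any 4 bases and TCC (an NF-kB motif, 45 bases before the start) and TGGGAA (an RBPJ motif, 207 and 179 bases before it). The window is chr2:102901666-102901915, minus strand, and reads 5′ to 3′:
Cd44: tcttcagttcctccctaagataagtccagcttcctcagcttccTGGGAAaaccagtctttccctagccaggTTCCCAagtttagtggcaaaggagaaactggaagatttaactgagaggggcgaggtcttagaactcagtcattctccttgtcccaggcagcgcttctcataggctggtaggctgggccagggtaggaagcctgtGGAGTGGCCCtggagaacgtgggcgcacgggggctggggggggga
Of 32851 mouse promoter windows of this length, 16.5% held this NF-kB motif and 21.6% held TGGGAA. Neither CTTTGAA nor CTTTGAT, TCF/LEF motifs held by 4.46% and 3.21% of windows, was found in any of the 7 windows. These are matches of letters and say nothing of binding.

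Cd24a (ENSMUSG00000047139, chromosome 10, 43578284 to 43584265, plus strand) was lower in Rspo1-positive than in untreated cells in the fit with passage as a block. It had 876, 789 and 625 FPKM at passages 5, 6 and 10 in untreated, 813, 443 and 533 FPKM in Rspo1-negative and 548, 360 and 451 FPKM in Rspo1-positive libraries. Rspo1-positive was below untreated with no overlap, while Rspo1-negative overlapped both. At every passage the order was untreated, Rspo1-negative, Rspo1-positive. The log2 fold change of Rspo1-positive against untreated was -0.75 (± 0.24 SE, edgeR BH-adjusted p = 0.120), and -0.77 (± 0.17 SE, BH-adjusted p = 0.0129) with the block. In the authors' deposited table it was -0.76 (adjusted p = 1.17e-05). The other 2 comparisons gave -0.36 for Rspo1-positive against Rspo1-negative (edgeR BH-adjusted p = 0.311) and -0.40 for Rspo1-negative against untreated (BH-adjusted p = 0.268). With the offset these were -0.34 (BH-adjusted p = 0.39) and -0.47 (BH-adjusted p = 0.253). The authors' deposited DESeq2 table for the Rspo1 groups gave -0.36 (adjusted p = 0.00781).

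Prom1 (ENSMUSG00000029086, chromosome 5, 43993620 to 44102032, minus strand) varied little in Rspo1-positive cells and more in the others. Untreated libraries had 486, 689 and 432 FPKM, Rspo1-negative libraries 547, 648 and 540 FPKM, and Rspo1-positive libraries 429, 454 and 411 FPKM. Rspo1-positive lay below Rspo1-negative with no overlap and overlapped untreated. Against Rspo1-negative the log2 fold change was -0.39 (± 0.20 SE, edgeR BH-adjusted p = 0.176). The GC and length offset enlarged it to -0.85 (± 0.20 SE, BH-adjusted p = 0.0343), and block and offset together gave the same value with an adjusted p of 0.0069. In the authors' deposited DESeq2 table the difference between the Rspo1 groups was -0.41 (adjusted p = 0.00113). Against untreated, Rspo1-positive gave -0.32 (± 0.20 SE, edgeR BH-adjusted p = 0.472). Rspo1-negative against untreated gave 0.08 (BH-adjusted p = 0.821), and 0.44 (BH-adjusted p = 0.206) with the offset. Prom1 shares 5.91% of its exon bases with Gm16401 on the opposite strand.

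Epcam (ENSMUSG00000045394, chromosome 17, 87635979 to 87651129, plus strand) differed least between the groups in the fit on group. It had 274, 337 and 263 FPKM in untreated, 264, 304 and 298 FPKM in Rspo1-negative and 259, 306 and 281 FPKM in Rspo1-positive libraries. The groups overlapped throughout. The log2 fold change of Rspo1-positive was -0.05 (± 0.15 SE, edgeR BH-adjusted p = 0.927) against untreated and 0.00 (± 0.15 SE, BH-adjusted p = 0.993) against Rspo1-negative. The fold change of Rspo1-negative over untreated was -0.05 (± 0.15 SE, BH-adjusted p = 0.855). With the offset the last 2 were 0.30 (BH-adjusted p = 0.268) and -0.35 (BH-adjusted p = 0.210).

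Among the listed partners of Epcam, Tspan8, a tetraspanin, fell in Rspo1-positive against untreated cells (-1.0, ± 0.24 SE, edgeR BH-adjusted p = 0.0413). Tspan8 kept its call only without untreated replicate 3 or Rspo1-positive replicate 1 (BH-adjusted p of up to 0.203 in the other fits). Cldn7, a claudin that binds Epcam, was lower in Rspo1-positive cells than in the Rspo1-negative group (-0.39, BH-adjusted p = 0.0442), with -0.05 (BH-adjusted p = 0.845) under the offset, and its call was kept only without Rspo1-negative replicate 2.

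St14 (ENSMUSG00000031995, chromosome 9, 31089402 to 31131853, minus strand) separated the Rspo1 groups, with less RNA in the Rspo1-positive one. Its values at passages 5, 6 and 10 were 107, 127 and 96.4 FPKM in untreated, 134, 133 and 141 FPKM in Rspo1-negative and 89.2, 93.6 and 84.8 FPKM in Rspo1-positive libraries. No 2 groups overlapped: Rspo1-negative was highest, untreated in the middle and Rspo1-positive lowest. Between the Rspo1 groups the log2 fold change was -0.57 (± 0.14 SE, edgeR BH-adjusted p = 0.0157), and with the GC and length offset it was -0.59 (BH-adjusted p = 0.0443). With the passage block it was -0.58 (BH-adjusted p = 0.00692). The authors' deposited DESeq2 table gave -0.59 (adjusted p = 2.35e-06). In edgeR fits on group, the call was lost, at nearly the same size, without Rspo1-negative replicate 3 (BH-adjusted p = 0.0504), Rspo1-positive replicate 1 (0.0593) or Rspo1-positive replicate 3 (0.0603).

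Against untreated cells the 2 Rspo1 groups lay on opposite sides and neither was called. St14 had a log2 fold change of -0.31 (± 0.14 SE, edgeR BH-adjusted p = 0.288) in Rspo1-positive and 0.26 (± 0.14 SE, BH-adjusted p = 0.200) in Rspo1-negative cells. With the offset the latter was 0.23 (BH-adjusted p = 0.388).

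The partners of matriptase include its membrane-bound inhibitors Spint1 and Spint2 and the protease Prss8 (prostasin), which acts with it. Of 10 tested partners, 5 were called between the Rspo1 groups in the fit on group, and those 5 were lower in Rspo1-positive cells. The median log2 fold change of the 10 in that fit was -0.55, beside 0.03 over all tested genes, of which 9.78% were called lower. With the passage block 9 of the 10 were called, against 38.9% of all tested genes. Among these 9, Met (0.47, edgeR BH-adjusted p = 0.023) and F2rl1 (0.30, BH-adjusted p = 0.0394) were higher in Rspo1-positive cells. With the GC and length offset 1 of the 10 was called (Tmprss6), where 4.4% of all tested genes were called lower.

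In the fit on group, Spint1 was the only 1 of 10 partners called between Rspo1-positive and untreated cells (5.21% of all tested genes). With the passage block Tmprss6 was called as well (-0.99, edgeR BH-adjusted p = 0.00219), which made 2 of 10 (13.2% of all tested genes). Spint1 had 158, 149 and 112 FPKM in untreated, 130, 122 and 121 FPKM in Rspo1-negative and 84.4, 76.9 and 65.3 FPKM in Rspo1-positive libraries. All Rspo1-positive libraries were below all others. The log2 fold change was -0.89 (± 0.16 SE, edgeR BH-adjusted p = 0.00833) against untreated, and -0.69 (± 0.16 SE, BH-adjusted p = 0.0120) against Rspo1-negative. The first kept its size with the offset (-0.90, BH-adjusted p = 0.0119) and lost its call without Rspo1-positive replicate 2 (BH-adjusted p = 0.0550). The second was -0.39 (BH-adjusted p = 0.175) with the offset, and was lost without Rspo1-positive replicate 3 (0.0523). With block and offset together the second was called (-0.40, edgeR BH-adjusted p = 0.0453).

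Spint2 had 256, 311 and 246 FPKM in untreated, 323, 317 and 331 FPKM in Rspo1-negative and 198, 223 and 213 FPKM in Rspo1-positive libraries. In FPKM it was highest in Rspo1-negative and lowest in Rspo1-positive cells with no overlap, whereas in CPM the untreated (813 to 1030 CPM) and Rspo1-negative libraries (1017 to 1084 CPM) overlapped. Its log2 fold change between the Rspo1 groups was -0.58 (edgeR BH-adjusted p = 0.0177; -0.46 and 0.0877 with the offset), and the call was lost without Rspo1-negative replicate 3 (0.0550), Rspo1-positive replicate 1 (0.0775) or Rspo1-positive replicate 3 (0.0545). Prss8 had -0.53 (BH-adjusted p = 0.0276; -0.19 and 0.493 with the offset), and each of the 6 fits that left out 1 library lost its call, with adjusted p-values of up to 0.0863. With the passage block Spint2 and Prss8 had -0.59 and -0.53 and were called (edgeR BH-adjusted p = 0.00787 and 0.00875). With block and offset together Spint2 was called (-0.46, BH-adjusted p = 0.0424) and Prss8 was not (-0.19, BH-adjusted p = 0.309). Tmprss6, a liver relative of matriptase, had -1.36 (± 0.28 SE, BH-adjusted p = 0.00799) in the fit on group. It kept its call with the offset (-1.06, BH-adjusted p = 0.0371) and in all 6 fits that left out 1 library.

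**Figure D2:**
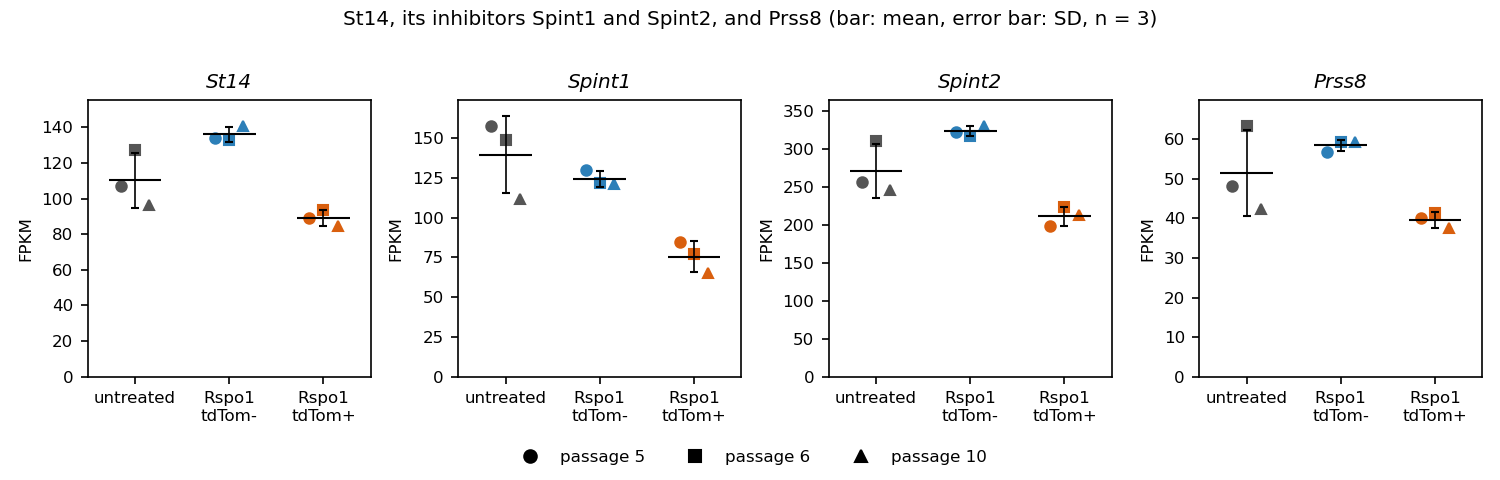
Deposited FPKM (vertical axis, from 0) of St14, its inhibitors Spint1 and Spint2, and Prss8 in the 3 groups, with points shaped by passage and the mean and SD (n = 3). All 4 genes are lowest in the Rspo1-positive group, where Spint1 lies at 65.3 to 84.4 FPKM and Prss8 at 37.5 to 41.4 FPKM.

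Spp1 (ENSMUSG00000029304, chromosome 5, 104435118 to 104441050, plus strand) rose in Rspo1-positive over untreated cells in the fit with passage as a block. It had 473, 936 and 548 FPKM in untreated libraries at passages 5, 6 and 10, 763, 1006 and 1032 FPKM in Rspo1-negative libraries, and 876, 1074 and 1222 FPKM in Rspo1-positive ones. At each passage the order was untreated, Rspo1-negative, Rspo1-positive. Pooled over passages the groups overlapped, since the untreated passage 6 library was above the lowest library of each Rspo1 group. The log2 fold change of Rspo1-positive against untreated was 0.69 (± 0.27 SE, edgeR BH-adjusted p = 0.196), and 0.73 (± 0.19 SE, BH-adjusted p = 0.0284) with passage as a block. Without untreated replicate 2, the passage 6 library, it was 1.05 (BH-adjusted p = 0.0274).

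For Rspo1-negative against untreated cells Spp1 gave 0.49 (± 0.27 SE, edgeR BH-adjusted p = 0.216). With block and offset together it was 0.74 (BH-adjusted p = 0.0205), and without untreated replicate 2 it was 0.84 (BH-adjusted p = 0.0241). It was not called with the offset alone (0.72, BH-adjusted p = 0.145) or with the block alone (0.51, BH-adjusted p = 0.0572). Nor was it called in the other 5 fits that left out 1 library. Between the Rspo1 groups it gave 0.21 (± 0.26 SE, BH-adjusted p = 0.598), and the sign turned with the offset (-0.06). Spp1 shares 18.75% of its exon bases with Gm42793 on the same strand, so reads of the 2 genes could be split between them. In the authors' deposited table Spp1 had a log2 fold change of 0.75 (adjusted p = 0.00027) for Rspo1-positive against untreated and 0.55 (adjusted p = 0.0134) for Rspo1-negative against untreated. The main start of Spp1 is shown, like that of Cd44, because both genes were highest in Rspo1-positive cells. Its window, chr5:104434861-104435110 on the plus strand, held none of the motifs searched, which also included TGANTCA for AP-1 (6.75% of windows):
Spp1: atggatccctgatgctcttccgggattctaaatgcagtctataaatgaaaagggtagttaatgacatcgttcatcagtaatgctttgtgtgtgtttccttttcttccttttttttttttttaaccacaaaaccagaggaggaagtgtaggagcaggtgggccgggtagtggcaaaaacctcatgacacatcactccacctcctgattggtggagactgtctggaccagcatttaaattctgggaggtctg

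The integrins that bind osteopontin were tested for 6 of 9 listed subunits. Of these, Itga9 had the largest fold changes. It had 22, 17 and 10 counts in untreated libraries (0.0403 to 0.0952 FPKM), 183 to 312 counts in Rspo1-negative libraries (1.1 to 1.58 FPKM) and 110 to 205 counts in Rspo1-positive ones (0.449 to 0.713 FPKM). The 3 groups did not overlap, with Rspo1-negative highest. Its log2 fold change was 4.14 (± 0.35 SE, edgeR BH-adjusted p = 0.000993) in Rspo1-negative and 2.97 (± 0.34 SE, BH-adjusted p = 0.00122) in Rspo1-positive cells against untreated. Rspo1-positive was lower than Rspo1-negative, with a log2 fold change of -1.18 (BH-adjusted p = 0.0177; 0.0301 with the offset), a call lost without Rspo1-negative replicate 2 (0.0533), Rspo1-positive replicate 2 (0.0632) or Rspo1-positive replicate 3 (0.0658).

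Itgav, the alpha chain shared by several osteopontin receptors, had 15.2, 15.2 and 11.4 FPKM in untreated, 6.97, 8.13 and 5.42 FPKM in Rspo1-negative and 13.7, 12.0 and 10.2 FPKM in Rspo1-positive libraries. It was lowest in the Rspo1-negative group, with no overlap. The fall against untreated was -1.06 (± 0.18 SE, edgeR BH-adjusted p = 0.00347), and -0.64 (BH-adjusted p = 0.0418) with the offset. The difference of Rspo1-positive from Rspo1-negative was 0.83 (BH-adjusted p = 0.00964), and 0.31 (BH-adjusted p = 0.252) with the offset. Itgb1, the common beta chain, fell in Rspo1-negative against untreated cells (-0.59, BH-adjusted p = 0.0174; 0.326 with the offset), a call lost without untreated replicate 1 (0.0608), Rspo1-negative replicate 1 (0.0537) or Rspo1-negative replicate 3 (0.0630). Comparing the Rspo1 groups, Itgb6 had 0.51 (BH-adjusted p = 0.0479; 0.725 with the offset) and Itgb5 had -0.69 (BH-adjusted p = 0.00889; 0.0890 with the offset). The call of Itgb6 was kept only without Rspo1-negative replicate 1. With block and offset together Itgb5 was called (-0.44, edgeR BH-adjusted p = 0.049) and Itgb6 was not (0.14, BH-adjusted p = 0.497).

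**Figure D3:**
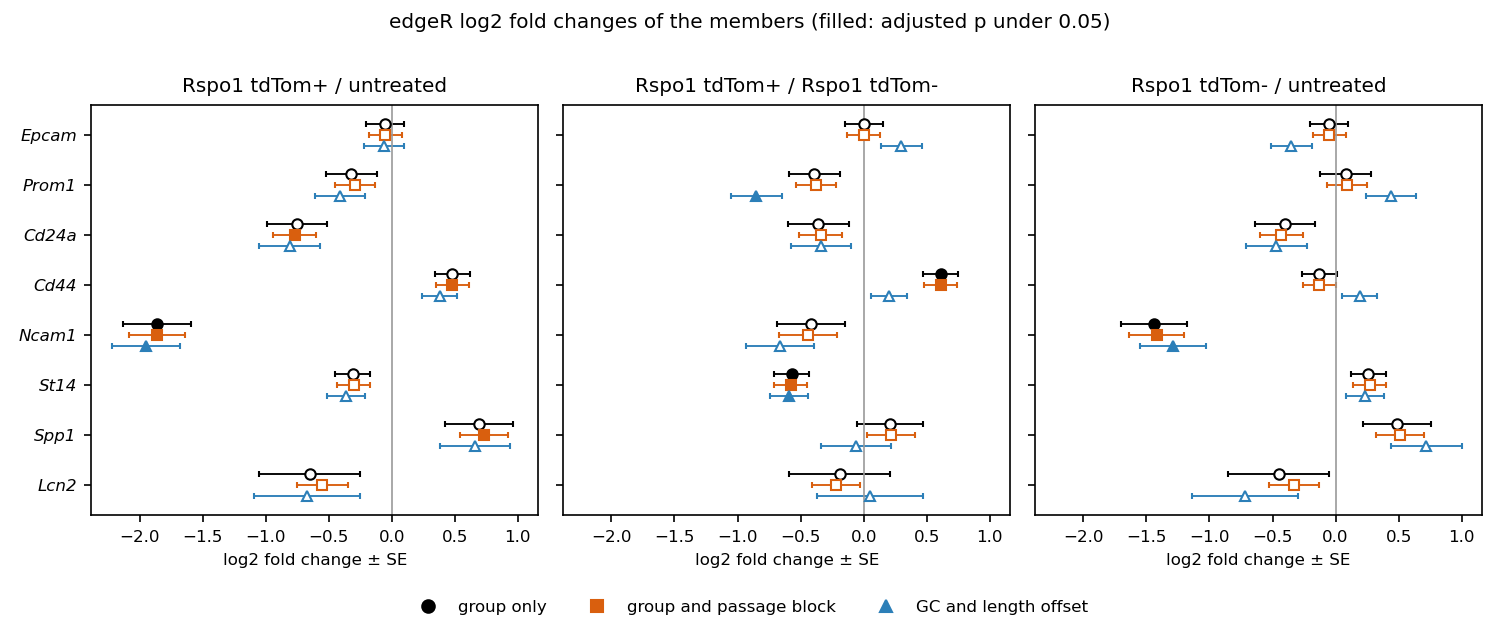
Log2 fold changes with SE (horizontal axis) of the 8 genes (rows) in the 3 comparisons (panels) under 3 edgeR fits, with filled symbols where the adjusted p is under 0.05. Ncam1 is filled in all 3 fits of both comparisons with untreated, and Cd44 between the Rspo1 groups has 0.61 in the fit on group and 0.20 under the offset.

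Lcn2 (ENSMUSG00000026822, chromosome 2, 32384633 to 32388252, minus strand) followed the passage more than the group. At passages 5, 6 and 10 it had 2652, 6845 and 2506 FPKM in untreated, 2634, 3909 and 2440 FPKM in Rspo1-negative and 2198, 3664 and 1857 FPKM in Rspo1-positive libraries. Passage 6 was highest and passage 10 lowest in all 3 groups, and the groups overlapped. No comparison of groups was called: the log2 fold change was -0.65 (± 0.40 SE, edgeR BH-adjusted p = 0.473) for Rspo1-positive against untreated, -0.19 (± 0.40 SE, BH-adjusted p = 0.762) between the Rspo1 groups and -0.45 (± 0.40 SE, BH-adjusted p = 0.460) for Rspo1-negative against untreated. Without untreated replicate 2 the first was -0.01 (BH-adjusted p = 0.997). With the offset the last 2 were 0.05 (BH-adjusted p = 0.954) and -0.72 (BH-adjusted p = 0.32).

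Passages were compared in a fit with group as a second term, in which each passage has 1 library per group. The libraries of a passage share its round of culture. The p-values of passages thus measure the spread left among the sorted groups, not the spread between repeat cultures of a passage. Lcn2 was higher at passage 6 than at passage 5 by a log2 fold change of 0.92 (± 0.20 SE, edgeR BH-adjusted p = 0.0362), and passage 10 against passage 6 gave -1.03 (± 0.20 SE, BH-adjusted p = 0.0101). Passages 10 and 5 differed by -0.12 (± 0.19 SE, BH-adjusted p = 0.746). The rise to passage 6 was lost without untreated replicate 1 (BH-adjusted p = 0.273), Rspo1-negative replicate 1 (0.165), Rspo1-positive replicate 1 (0.109) or Rspo1-positive replicate 2 (0.0993). The fall to passage 10 was lost only without Rspo1-positive replicate 3 (0.0606). A passage here is a single round of culture, so passage and culture round cannot be told apart.

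In this edgeR fit of all 9 libraries, after the filter on low counts, Lcn2 was the only 1 of the 8 called for passage. It was 1 of 8 at passage 6 against 5, where 2.49% of all tested genes were called, and 1 of 8 at passage 10 against 6, where 8.45% were. At passage 10 against 5, this fit called 0 of the 8 (9.07% of all tested genes). There 1 of the 8 had an unadjusted p under 0.05, and DESeq2 called 1. At passage 6 against 5 DESeq2 called 3 of the 8, which were Lcn2, Cd24a and Spp1. The gene it called at passage 10 against 5 was Cd24a (log2 fold change -0.43, edgeR BH-adjusted p = 0.141 and 0.0390 by DESeq2).

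Some other secreted proteins were also called between passages. Of 18 tested genes in the list of other secreted duct proteins, 4 rose and 1 fell from passage 5 to 6 (2.49% of all tested genes were called), and 1 rose and 7 fell from passage 6 to 10 (8.45%). C3, the central complement protein, had 133, 469 and 91.3 FPKM in untreated, 191, 446 and 155 FPKM in Rspo1-negative and 170, 305 and 92.9 FPKM in Rspo1-positive libraries. Passage 6 was highest and passage 10 lowest in each group. Its log2 fold change was 1.32 (± 0.20 SE, edgeR BH-adjusted p = 0.00793) from passage 5 to 6, lost without untreated replicate 1 (0.0780) or Rspo1-negative replicate 1 (0.0792), and -1.86 (± 0.21 SE, BH-adjusted p = 0.000828) from passage 6 to 10.

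Saa3, a serum amyloid A protein, had far lower levels with a steeper peak, at 0.235, 5.05 and 0.733 FPKM in untreated, 0.362, 2.89 and 1.24 FPKM in Rspo1-negative and 0.388, 4.65 and 0.555 FPKM in Rspo1-positive libraries. It rose by 3.68 (± 0.36 SE, edgeR BH-adjusted p = 0.00133) from passage 5 to 6 and changed by -2.35 (± 0.33 SE, BH-adjusted p = 0.00219) from passage 6 to 10. Slpi, a secreted protease inhibitor, had its peak at passage 6 too. It rose by 1.03 (± 0.18 SE, BH-adjusted p = 0.0159), a call lost without any 1 of the passage 5 libraries (adjusted p of up to 0.119), and then changed by -0.96 (± 0.18 SE, BH-adjusted p = 0.0100), a call kept in 5 of 6 fits that left out 1 library. The chemokine Ccl2 changed by -2.47 (BH-adjusted p = 0.00114) from passage 6 to 10. Not all patterns were like that of Lcn2. Saa3 was higher at passage 10 than at passage 5 (1.34, edgeR BH-adjusted p = 0.0464), and Lgals3 fell from passage 5 to 6 (-0.77, BH-adjusted p = 0.0227). Both calls were kept in only 1 of 6 fits that left out 1 library. Cxcl1, another chemokine, gave 0.40 (BH-adjusted p = 0.419) from passage 5 to 6 and -2.3 (BH-adjusted p = 0.000652) from passage 6 to 10. In the fits of all 9 libraries the dividing-cell markers also moved with passage: 6 of 10 were called higher at passage 6 than at passage 5. Their part in the passage differences was not tested.

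**Figure D4:**
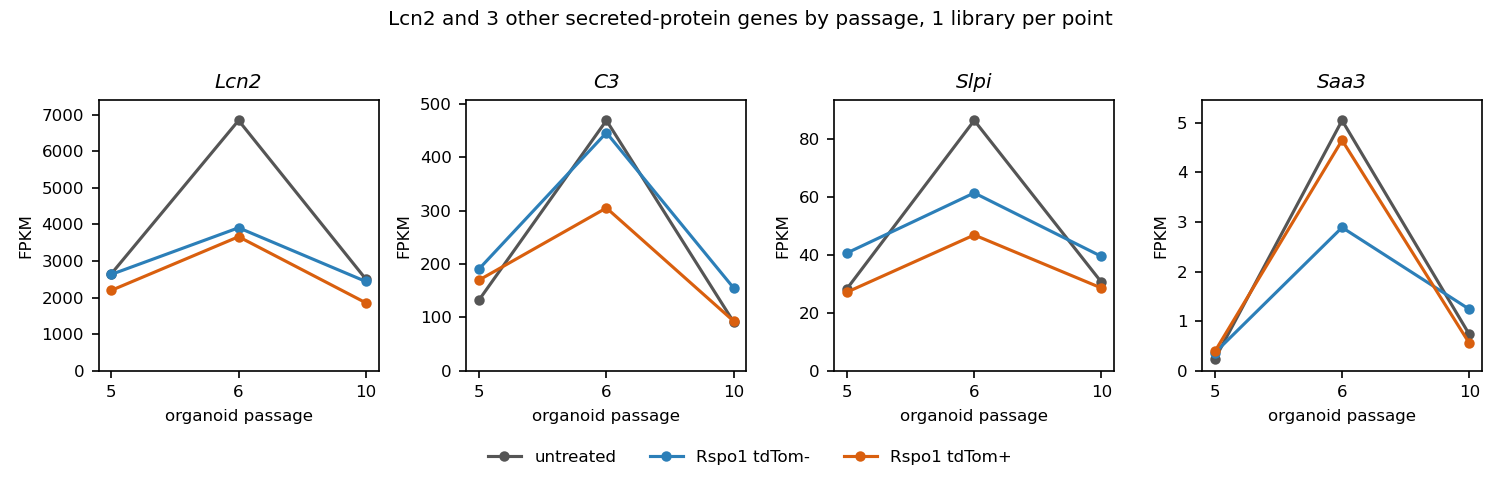
Deposited FPKM (vertical axis, from 0) of Lcn2, C3, Slpi and Saa3 at organoid passages 5, 6 and 10 (horizontal axis, evenly spaced), with 1 line per group and 1 library per point. Every line peaks at passage 6, where untreated Lcn2 reaches 6845 FPKM.

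The stretch before the start of Lcn2 is shown because Lcn2 was highest at passage 6 in each group. It is the part of the RefSeq window that lies outside annotated exons, 111 to 59 bases before the start, at chr2:32387798-32387850 on the minus strand of GRCm38.p6. Capitals mark the reverse-strand match to the NF-kB motif, 102 bases before the start:
Lcn2: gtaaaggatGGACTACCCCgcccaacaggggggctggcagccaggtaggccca
The same motif was held by 16.5% of all windows, and the match is a description of the letters.

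Among the 6 tested genes of the lipocalin list, Nfkbiz and Cebpd, regulators that are known to drive Lcn2 transcription, moved in opposite directions. Nfkbiz fell in Rspo1-negative against untreated cells (-1.20, ± 0.19 SE, edgeR BH-adjusted p = 0.00232) while Cebpd rose (1.36, ± 0.21 SE, BH-adjusted p = 0.00251), and both calls held with the offset (BH-adjusted p = 0.00724 and 0.0121). The NF-kB inhibitor Nfkbia fell from passage 6 to 10 (-0.57, ± 0.11 SE, edgeR BH-adjusted p = 0.0123), a call lost without untreated replicate 3 (0.0650) or Rspo1-positive replicate 3 (0.0606). Unlike Lcn2, Nfkbia was not called at passage 6 against 5 (0.03, BH-adjusted p = 0.923) and was lower at passage 10 than at passage 5 (-0.53, BH-adjusted p = 0.0168). The Lcn2 receptor gene Slc22a17 was low, at 1.31 to 4.19 FPKM, and was not called between groups (0.51 for Rspo1-positive against untreated, ± 0.33 SE, BH-adjusted p = 0.485).

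Pairs of the 8 genes varied together or apart over the 9 libraries, which share groups and passages. Pearson's r of log2 CPM was highest for Prom1 and St14 (0.84) and Prom1 and Lcn2 (0.80), and lowest for Spp1 and Ncam1 (-0.82) and Cd44 and St14 (-0.80). The tested genes most like each member, by the same measure and with a mean log2 CPM above 2, are given as a description. They were Arhgap11a (0.964), Net1 (0.960) and Cenpf (0.957) for Cd44, and Gm42793 (0.965), which overlaps it, Mycn (0.944) and Cdkn2c (0.940) for Spp1. For Ncam1 they were Tnxb (0.992), Gpbp1l1 (0.972) and Capn5 (0.962), and for St14 Usp4 (0.987), Ankrd46 (0.985) and Mlycd (0.981). Lcn2 was most like Mboat7 (0.981), Adgrg1 (0.955) and Zfp46 (0.939). For Prom1 they were Galnt11 (0.982), Mgat1 (0.980) and Cyb561 (0.979), and for Cd24a BC025446 (0.978), Cdc42se2 (0.974) and 2610001J05Rik (0.971). Epcam had the weakest likeness, with Ado (0.906), Ctps2 (0.906) and Capsl (0.887).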

How the data were processed

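RNA of sorted organoid cells was read as single-end 75 bp reads from 100 ng of total RNA, per the labels' protocols. Per the submitters' processing notes, Trimmomatic 0.35, FastQC 0.11.2, STAR 2.5.1b, featureCounts and DESeq2 were used with GRCm38; the annotation and strand setting are not given in the sources used here. The authors deposited raw counts and FPKM per gene for each library, per the file headers. The authors' tables give log2 fold changes, standard errors, test scores, p-values and adjusted p-values and a mean normalised signal for 15807 genes, per the file headers.

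Counts were tested with edgeR 4.0.16 under R 4.3.3 and limma 3.58.1: filterByExpr (minimum count 10, minimum total 15), TMM scaling, 1 quasi-likelihood fit of the 9 libraries on group, Benjamini-Hochberg adjustment over 17011 genes and a threshold of 0.05. The SE is the log2 fold change divided by the square root of F. Passages were tested in a fit of group and passage. FPKM entered no test. CPM uses TMM-scaled library sizes. Replicates of a group differed by a chi-square per gene of 54.4 to 518.3. Exon overlap, GC content and length came from GENCODE on GRCm38, and promoters from RefSeq. The fit was tested on simulated data. Figures were drawn in Python 3.11.15 with matplotlib 3.10.9.

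Same-numbered libraries share an organoid passage, per the labels. After removal of group means, log2 CPM (prior count 2) of same-passage libraries correlated at 0.123 to 0.573 in 9 pairs and of different passages at -0.476 to 0.083 in 18 pairs, so passage pairs the libraries. The blocked value stands beside a result where it changes the call. Alternatives were other scalings, DESeq2 1.42.0, no filter, the passage block, the offset, only the libraries compared, and leaving out each library. For comparisons of groups, the fits that left out 1 library had no passage block. Calls lost in them thus do not take the pairing by passage into account.

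The members and the gene lists were chosen with earlier results of these data known. The naming rule was: all members; for each, the 3 most alike genes; of the lists, genes with an adjusted p under 0.05, at most 4 per list and comparison; and Spint1, Spint2, Itgav, Itgb1, Itgb6, Slc22a17, Hmmr, Has2 and Axin2 where measured. Some genes that the rule names are not reported here.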

Additional observations from a re-analysis of the deposited data

How the results depend on the processing

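Of 624 alternative values for the 8 genes, 559 kept direction and side of the threshold, 21 newly passed it, 15 fell short of it and 29 turned sign. The passage block changed no other call of the 8 genes than those named for Cd24a, Cd44 and Spp1. Of the 8, the number called between Rspo1-positive and untreated cells was 3 with DESeq2, 2 with no filter, 4 with the block, 3 with block and offset, and 1 to 2 when 1 library was left out (2 without untreated replicate 2). Between the Rspo1 groups it was 3 with block and offset and 0 to 2 when 1 library was left out (0 without replicate 3 of either group). Between Rspo1-negative and untreated cells it was 2 with block and offset and 1 to 2 when 1 library was left out (2 without untreated replicate 2). For passages 10 and 5 it was 1 with DESeq2 and 1 with no filter. For passages 6 and 5 it was 3 with each of these, 0 with passage alone and 0 to 2 when 1 library was left out. For passages 10 and 6 it was 0 with passage alone and 0 to 1 when 1 library was left out. With CPM per kilobase 4, 6 and 6 of the 8 kept their rank in untreated, Rspo1-negative and Rspo1-positive cells.

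Signs turned mostly for values near 0. With the offset, alone and with the block, Rspo1-positive against Rspo1-negative cells gave 0.30 and 0.30 for the Epcam log2 fold change, -0.13 and -0.14 for Itgb1, 0.05 and 0.02 for Lcn2, and -0.06 and -0.04 for Spp1, and Rspo1-negative against untreated cells gave 0.19 and 0.19 for Cd44. The Epcam value of the latter was 0.03 with upper-quartile scaling and 0.01 with no filter. When 1 library was left out, Rspo1-positive against untreated ranged from -0.12 to 0.07 for Epcam. Rspo1-positive against Rspo1-negative ranged from -0.11 to 0.56 for Axin2, -0.08 to 0.06 for Epcam and -0.55 to 0.04 for Lcn2. Rspo1-negative against untreated ranged from -0.12 to 0.07 for Epcam, -0.70 to 0.18 for Lcn2, -0.06 to 0.30 for Prom1 and -0.01 to 0.71 for Slc22a17. Passages 10 and 5 ranged from -0.13 to 0.06 for Prom1 and -0.14 to 0.08 for St14, and passages 10 and 6 from -0.06 to 0.31 for Cd24a and -0.37 to 0.09 for Spp1. The cause was not tested.

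Over all tested genes, 886 passed between Rspo1-positive and untreated cells, 1506 with DESeq2, 1446 with no filter, 2247 with the block and 2693 with block and offset. Between the Rspo1 groups 4141 passed, 6624 with the block and 1265 with the offset. Between Rspo1-negative and untreated cells 3724 passed, 6039 with the block, 1285 with the offset and 2234 with only those libraries. For passages 10 and 5, 1543 passed, 2784 with no filter and 17 with passage alone. For passages 6 and 5, 423 passed, 851 with DESeq2, 1193 with no filter and 0 with passage alone, and for passages 10 and 6, 1438, 2456 with no filter and 8 with passage alone. With 1 library left out these counts ranged from 384 to 909, 2109 to 4123 and 1935 to 3825 for the groups, and from 382 to 658, 92 to 826 and 546 to 1458 for the passages in the same order. Few counts limit Ncam1, which had 55 to 303 in a library.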

Other observations

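Other surface proteins of duct or progenitor cells were measured beside the 8 genes, in a list chosen with earlier results of these data known. Of 27 tested, 2 passed between Rspo1-positive and untreated cells, where 5.21% of all tested genes did, and 7 passed with passage as a block (13.2% of all tested genes). Lgr5, an R-spondin receptor and stem cell marker, was higher by a log2 fold change of 4.82 (edgeR BH-adjusted p = 0.00991), from 12, 2 and 6 counts in untreated to 229, 309 and 58 counts in Rspo1-positive libraries at passages 5, 6 and 10. The other was Tspan8, which was lower. The rise of Lgr5 was not limited to the tdTom-positive gate. Rspo1-negative libraries held 114, 140 and 23 Lgr5 counts at passages 5, 6 and 10. Their log2 fold change over untreated cells was 3.97 (edgeR BH-adjusted p = 0.0109), and 4.29 (BH-adjusted p = 0.0182) with the offset. Lgr5 was not called for Rspo1-positive against Rspo1-negative cells (0.85, BH-adjusted p = 0.4). Between the Rspo1 groups 10 of 27 passed, 3 higher and 7 lower in Rspo1-positive cells, where 24.3% of all tested genes passed. With the GC and length offset 1 of 27 passed, against 7.44%. Among the 10 were Cldn3 (-0.85), a claudin of tight junctions, Sdc1 (-0.80), a heparan sulfate proteoglycan, Cd63 (-0.63), a tetraspanin, and Itga6 (0.60), a laminin receptor chain. With the offset none of these 4 passed (BH-adjusted p = 0.0816 to 0.544). With block and offset together Sdc1 (-0.55, edgeR BH-adjusted p = 0.0267) and Cd63 (-0.43, BH-adjusted p = 0.0307) passed. Cldn3 (BH-adjusted p = 0.0698) and Itga6 (BH-adjusted p = 0.404) did not.

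Aqp1, the water channel of bile duct cells, had 6.24, 10.4 and 33.6 FPKM in untreated, 71.0, 71.7 and 180 FPKM in Rspo1-negative and 44.6, 33.4 and 113 FPKM in Rspo1-positive libraries. Rspo1-negative exceeded untreated at every passage and without overlap (log2 fold change 2.65, edgeR BH-adjusted p = 0.0205). That call was lost with the offset (2.37, BH-adjusted p = 0.0517) and without untreated replicate 1 (0.0573), untreated replicate 2 (0.0556) or Rspo1-negative replicate 3 (0.0674). With the passage block it was kept (2.84, BH-adjusted p = 5.54e-05), as with block and offset together (2.55, BH-adjusted p = 6.72e-05). Rspo1-positive against untreated gave 1.93 (BH-adjusted p = 0.146), and 2.07 (BH-adjusted p = 7.4e-05) with passage as a block. In each group passage 10 was the highest.

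Among secreted proteins other than Spp1 and Lcn2, Cyr61, a matrix-bound protein, had 37.3, 32.9 and 26.4 FPKM in untreated, 63.0, 46.5 and 63.1 FPKM in Rspo1-negative and 87.6, 60.6 and 74.3 FPKM in Rspo1-positive libraries, a log2 fold change of 1.20 (edgeR BH-adjusted p = 0.00427) for Rspo1-positive against untreated. Mmp7, a secreted protease of duct cells, was higher in Rspo1-negative against untreated cells (0.85, BH-adjusted p = 0.0169; 0.0388 with the offset), a call lost without untreated replicate 1 (0.0581) or Rspo1-negative replicate 1 (0.0569).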
